A study of Mus musculus with 4 samples.

Results

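The sodium and calcium pumps of mouse hippocampus were followed through 6 probe sets of 4 genes: Atp1b1 and Atp1b2, which encode beta subunits of the sodium pump, Atp2a2, which encodes the calcium pump SERCA2 of the endoplasmic reticulum, and Atp2b2, which encodes the plasma membrane calcium pump PMCA2. The members were chosen as every probe set that the platform's annotation pairs with exactly 1 of 5 listed gene symbols. The annotation held 4 of the 5 symbols, and Atp2b1, the gene of the plasma membrane calcium pump PMCA1, was not analysed here. The array held 12422 probe sets besides 66 controls, and its probe sets with a single symbol covered 8251 genes. Total RNA of 4 hippocampus samples had been hybridised to Affymetrix Murine Genome arrays, 1 array per sample, and the series title calls the samples replicates. The labels place all of them in a single group and give no strain, sex, age or treatment, nor whether they came from separate animals, so that part of their spread may be technical. They are numbered 1 to 4 here, which orders nothing, and no comparison between groups was possible.

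The sodium pump uses ATP to export sodium and import potassium, and so maintains the gradients on which action potentials and transmitter uptake depend. It consists of a catalytic alpha subunit and a beta subunit, which brings the alpha subunit to the cell surface and adjusts its affinity for ions. Calcium pumps remove calcium after electrical activity, SERCA pumps into the endoplasmic reticulum and PMCA pumps out of the cell. In bulk tissue, fewer cells of a type and less RNA per cell cannot be told apart.

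The pump genes fell into a steady and a variable pair. Atp1b1 and Atp2a2 spanned 1.27-fold and 1.16-fold between the lowest and the highest sample, whereas Atp1b2 spanned 2.44-fold and Atp2b2 3.52-fold. Both variable genes differed in which samples were high: Atp1b2 was high in samples 1 and 2, and Atp2b2 was high in sample 3. Neither passed the test of excess variance after adjustment. Signals are quantile normalized array units, and a range is the ratio of the highest to the lowest sample. For ranges, log2 values and tests, values below 27.7 units, the 25th percentile of all normalized values, were set to that floor. The floor was used because low signals could not be told from background. Signals in units, with their means, SDs and sums, are given without the floor. These fold spans and those below rest on 1 array per sample, and the number of arrays limits their precision.

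**Figure D1:**
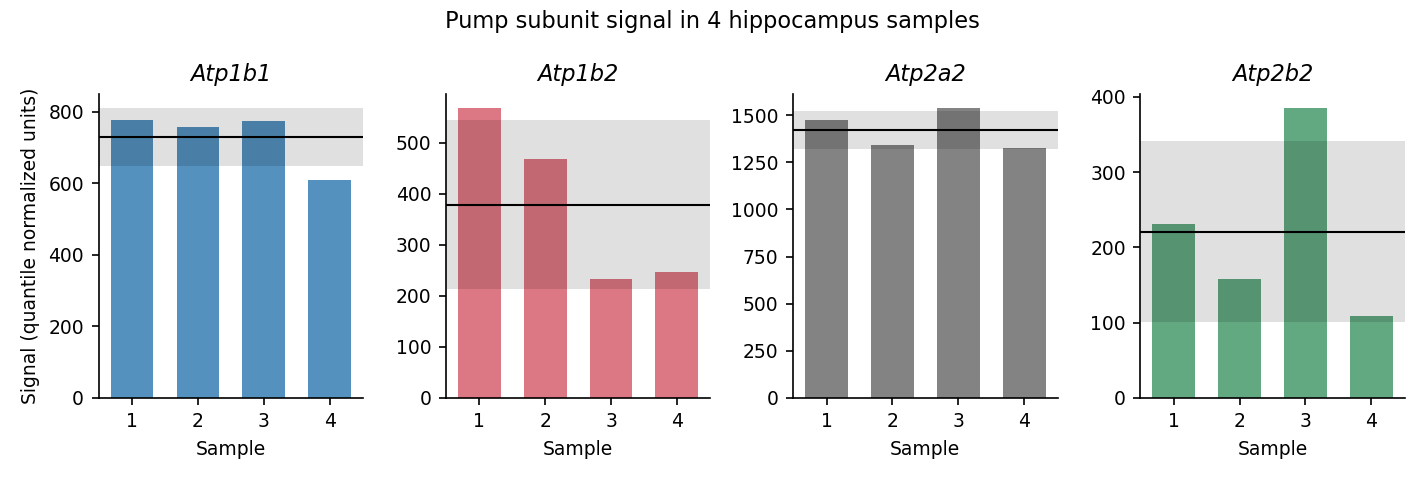
Signal of Atp1b1, Atp1b2, Atp2a2 and Atp2b2 (y axes, quantile normalized units, each from 0 on its own scale) in samples 1 to 4 (x axes). Bars are single arrays, the line is the mean and the grey band is 1 SD either side (n = 4). Atp1b1 and Atp2a2 lie close to their means, Atp1b2 is high in samples 1 and 2, and Atp2b2 runs from 109 units in sample 4 to 385 units in sample 3.

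Atp1b1 encodes the beta-1 subunit, the form found in most tissues and the main beta subunit of neurons. The gene lies at chr1:164437099-164458355 of mouse assembly GRCm38.p6. Its probe set 161467_f_at gave 776, 758, 775 and 609 units in samples 1 to 4. Samples 1, 2 and 3 were nearly equal and sample 4 stood below them. The mean was 729.5 ± 80.5 units (SD, n = 4), and sample 4 lay 1.26-fold below the geometric mean of the other 3. Without sample 4 the range was 1.02-fold. The SD of the log2 signal was 0.17, against 0.20 for probe sets of like signal, and the variance did not exceed the trend (one-sided F test in limma, adjusted by Benjamini-Hochberg, adjusted p = 0.994). The suffix of this probe set marks, in Affymetrix naming, probes that can read several related sequences.

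A further Atp1b1 probe set, 160500_at, gave 53.05 units in sample 1 and lay below the floor in the other 3 samples. Its range was therefore at least 1.92-fold, and the samples under the floor have no order. Its mean was below the median of all probe sets, so it was not tested. Sample 1 stood alone in 160500_at and matched samples 2 and 3 in 161467_f_at. This difference rests on 1 low value and does not show that the probe sets disagreed.

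Atp1b2 encodes the beta-2 subunit, first described as an adhesion molecule on glia and expressed mainly by astrocytes in adult brain. The gene lies at chr11:69599728-69605978 of GRCm38.p6. Its probe set 93664_at gave 568, 468, 233 and 247 units in samples 1 to 4. Samples 1 and 2 were high, samples 3 and 4 were low, and no sample lay between 247 and 468 units. The mean was 379 ± 166 units (SD, n = 4). Sample 2 exceeded sample 4, its neighbour in the order, by 0.92 on the log2 scale, while samples 1 and 2 differed by 0.28 and samples 3 and 4 by 0.08. For scale, single samples of probe sets of like signal had an SD of 0.23, and differences between 2 samples spread more widely than that. Neither samples 3 and 4 nor samples 1 and 2 therefore differed beyond the usual spread.

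The log2 SD of Atp1b2 was 2.77 times that of the trend. Its unadjusted p was 0.0251, and its adjusted p was 0.767 (the same limma test), so that it was not called after adjustment over all probe sets. Without sample 1 the range was 2.0-fold and the unadjusted p was 0.0715. The second Atp1b2 probe set, 93665_at, lay below the floor in all 4 samples, between 14.1 and 17.3 units, and gave no information on their order.

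Markers of astrocytes followed another order than Atp1b2. The annotation held 7 of 8 listed markers, all of which were analysed. Their summed signal, which the brightest probe sets dominate, was 10200.5, 10299, 10882 and 10457 units in samples 1 to 4. It was lowest where Atp1b2 was highest, but samples 1 and 2 were nearly equal. Aldolase C (Aldoc), an astrocyte enzyme, stayed within 1.06-fold. The glial filament gene Gfap gave 827, 876, 581 and 1320.2 units, and the water channel gene Aqp4 gave 603, 739, 994 and 532 units. A further Gfap probe set gave 214, 221, 152 and 231 units, with less difference between sample 4 and samples 1 and 2. Neither gene was highest in sample 1 or 2. Of the 7 analysed markers, 0 had the full order of Atp1b2, 1 was highest in sample 2, 4 in sample 3 and 2 in sample 4. In sample 2, where Atp1b2 was also high, 6 of the 7 lay above the log2 mean of the other samples. In sample 1 only 1 did. The part of astrocyte content in the Atp1b2 values was not tested.

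Some markers of blood, vessels and choroid plexus shared the order of Atp1b2 over the samples, and others of the same lists did not. Among erythroid markers, 5 of 7 held and 4 analysed, 2 had the full order of Atp1b2, sample 1 above 2, 4 and 3: the globin genes Hba-a1 (10256, 9251, 3630 and 6998 units) and Hbb-b2 (3658, 1557, 859 and 1477 units). The heme synthesis gene Alas2 was highest in sample 2 and lowest in sample 3, and the erythroid factor gene Klf1 was highest in sample 3. Among vessel markers, 6 of 7 held and 3 analysed, 1 had that order, the receptor gene Flt1, while Pecam1 was highest and Cldn5 lowest in sample 4. Among choroid plexus markers, 4 of 7 held and analysed, 1 had it, the folate receptor gene Folr1; the thyroxine carrier gene Ttr was also highest in sample 1 and lowest in sample 3 (2630, 1236, 954 and 1820 units), whereas Kl was highest and Igfbp2 lowest in sample 4. Of all analysed probe sets, 2.96% had this order. The summed signals covered all held genes of a list, also those not analysed, and the brightest probe sets dominate them. They were 14261, 11215.5, 4718 and 8807 units for the erythroid list. The vessel list gave 921, 766, 654 and 707 units, and the choroid plexus list 3487, 1943, 1508 and 2493 units. No measured marker of these lists was at 0 in every sample. Their part in the Atp1b2 values was not tested.

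Atp2a2 encodes SERCA2, the calcium pump of the endoplasmic reticulum, whose SERCA2b form is the widespread one and the main SERCA of neurons. The gene lies at chr5:122453513-122502225 of GRCm38.p6. Its probe set 99570_s_at gave 1473, 1343, 1538 and 1328 units in samples 1 to 4. Sample 3 was highest and samples 2 and 4 were lowest, but all lay within 1.16-fold. The mean was 1421 ± 102 units (SD, n = 4), a coefficient of variation of 7.17%, which was the smallest among the 4 analysed pump probe sets. The log2 SD was 0.10, against 0.18 for probe sets of like signal (adjusted p = 0.996 in the limma test). Of all analysed probe sets, 91.5% had a range at least as wide. The suffix of this probe set likewise marks probes that can read several transcripts, and SERCA2a and SERCA2b were not separated.

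Atp2b2 encodes PMCA2, a fast plasma membrane calcium pump found mainly in neurons and in the hair cells of the inner ear, where its loss causes deafness and unsteady gait in mice. The gene lies at chr6:113743831-114042613 of GRCm38.p6, and RefSeq places 3 transcript starts in it, which a single probe set does not tell apart. Its probe set 95324_at gave 231, 158, 385 and 109 units in samples 1 to 4. Sample 3 was highest, sample 4 was lowest, and samples 1 and 2 lay between them. The mean was 221 ± 120.3 units (SD, n = 4), and sample 3 lay 2.43-fold above, and sample 4 2.21-fold below, the geometric mean of the remaining 3.

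The steps between neighbouring samples of Atp2b2 were 0.74, 0.54 and 0.53 on the log2 scale. For scale, single samples of probe sets of like signal had an SD of 0.29, and differences between 2 samples spread more widely than that. The steps themselves were not tested. Its log2 SD was 2.70 times that of the trend. The unadjusted p was 0.0278 and the adjusted p 0.776 (the same limma test). The range was 2.10-fold without sample 3, with an unadjusted p of 0.157, and 2.41-fold without sample 4, with an unadjusted p of 0.0337.

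**Figure D2:**
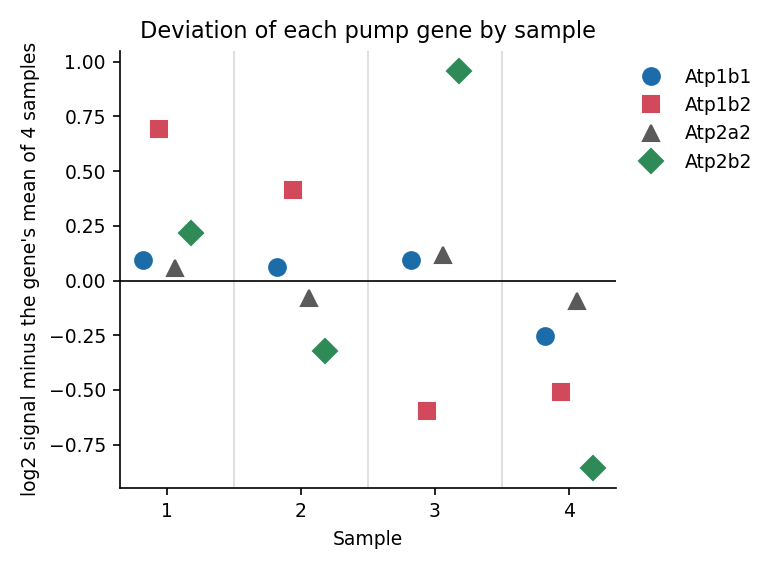
Deviation of each pump gene (y axis, log2 signal in a sample minus the gene's mean of 4 samples) in samples 1 to 4 (x axis), with 1 marker per gene. In sample 3 Atp2b2 lies at 0.96 and Atp1b2 at -0.59, while Atp1b1 and Atp2a2 stay between -0.25 and 0.12 in every sample.

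The low Atp2b2 signal fell in a sample with other differences. Sample 4 had the highest ratio of 3' to 5' signal, which rises when RNA or its copy is less complete, for the control transcripts beta-actin and Gapdh: 2.03 against 1.51 to 1.84 in the other samples, and 1.15 against 0.864 to 0.981. The summed signal of neuron markers, 9 of 10 held and all of them analysed, was 21040.1, 17711, 19251 and 15551.5 units, and so was also lowest in sample 4. The brightest probe sets dominate this sum. Of the 9 neuron markers, 7 were lowest in sample 4, while Gap43 was lowest in sample 2 and Nefl in sample 3. No neuron marker was at 0. The part of these differences in the Atp2b2 and Atp1b1 values was not tested. Sample 4 was the lowest sample for 3 of the 4 analysed pump genes, and for 30.7% of all analysed probe sets.

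PMCA2 is abundant in cerebellar Purkinje cells, and markers of other brain regions were therefore examined. The annotation held 6 of 10 of them and 4 were analysed. The summed signal of all 6 was 886, 867, 909 and 978 units. It includes Gabra6 and Hcrt, too low for analysis, with 10.6 and 39.8 units in sample 3 and 69.1 and 68.4 units in sample 4. Which sample had the highest sum depends on these low genes. Of the 4 analysed, 2 were highest in sample 4, 1 in sample 1 and 1 in sample 3. The probe sets of the Purkinje cell gene Pcp2 disagreed: 102376_r_at gave 140, 153, 401 and 135 units and 162452_at gave 132, 91.2, 65.65 and 160.1 units, so that the former was highest and the latter lowest in sample 3. All 10 hippocampal neuron markers were held and 9 were analysed, with the granule cell gene Prox1 too low for analysis and below the floor in samples 2 and 4. The widest range of the list was that of Camk2a, a kinase subunit of excitatory synapses, which gave 357, 630, 321 and 29.4 units, and whose other analysed probe set was below the floor in sample 4 only, with 216 to 472 units elsewhere. Both were lowest in the sample in which Atp2b2 was lowest, but the list as a whole did not share this. Of its 9 analysed markers, 2 were lowest in sample 4, 5 in sample 3 and 2 in sample 2, and 3 were highest in sample 4. No held marker of either list was below the floor in every sample, so that this check of the tissue label did not separate hippocampus from other regions.

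Among the 4 analysed pump probe sets, 0 passed the variance test after adjustment, as did 0 of all 6210 analysed probe sets (background 0%). The trend was fitted to these same probe sets. The smallest adjusted p of all in the limma test was 0.356, that of Camk2a with a range of 21.4-fold. With 4 arrays the test could thus hardly call any probe set, and failing it does not show that a gene was steady. An unadjusted p under 0.05 was found for 2 of the 4, against 5.62% of all analysed probe sets, which is 349. A range of at least 2-fold was also found for 2 of 4, against 15.2% of all, and a range of at least 1.5-fold for the same number, against 44.2%. The median log2 range of the pump probe sets was 0.82, against 0.53 over all, but this median of 4 values lay between the steady and the variable pair and described neither. Only 3.30% of analysed probe sets had a range as wide as that of Atp2b2, and 7.92% one as wide as that of Atp1b2. These shares are descriptions of the 4 arrays. The remaining 2 pump probe sets lay below the signal filter and enter none of these counts.

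**Figure D3:**
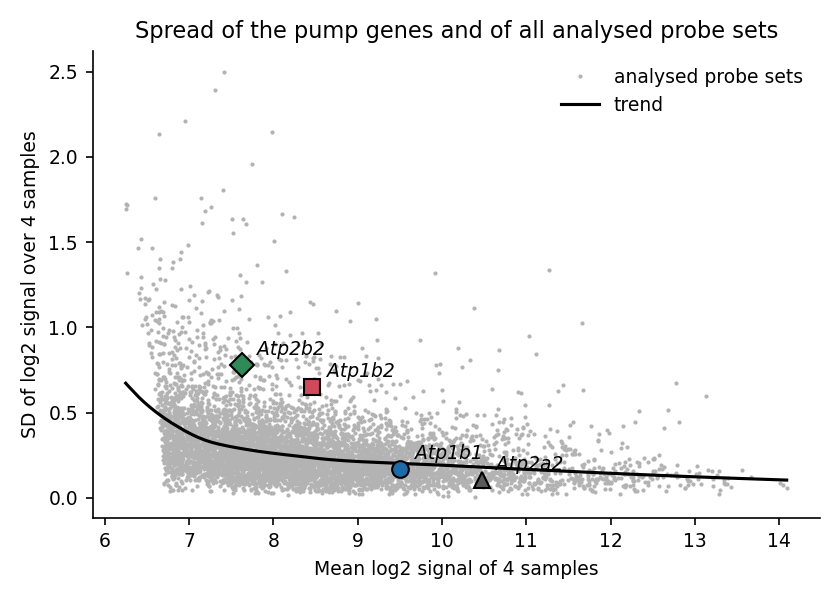
SD of the log2 signal over the 4 samples (y axis) against the mean log2 signal (x axis) for the 6210 analysed probe sets (grey points), with the fitted trend (line) and the 4 pump probe sets (large markers). Atp1b2 and Atp2b2 lie 2.77 and 2.70 times above the trend, and Atp1b1 and Atp2a2 lie below it, at 0.84 and 0.57 times.

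Because signals of different probe sets cannot be set against one another as levels, the pump genes were related through their changes between samples. The ratio of Atp1b2 to Atp2b2 within an array moved 4.88-fold over the samples, which was the widest of the 6 pairs, and it was lowest in sample 3. The ratio of Atp1b1 to Atp2a2 moved 1.23-fold, the narrowest. Between the sodium pump subunits, the ratio of Atp1b1 to Atp1b2 moved 2.44-fold, being lowest in sample 1 and highest in sample 3. Between the calcium pumps, the ratio of Atp2a2 to Atp2b2 moved 3.04-fold, lowest in sample 3 and highest in sample 4. A ratio within an array shows unequal change and not which of its genes changed.

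Genes that work with the pumps were taken from 8 lists with 80 genes, of which the annotation held 46 and 39 were analysed. None of the 39 passed the variance test after adjustment (limma), 3 had an unadjusted p under 0.05, and 5 had a range of at least 2-fold, 12.8% against the 15.2% of all. Their median log2 range was 0.43. The 5 genes were Fxyd7, Slc1a2, Slc4a4, Ryr3 and Atp6v0a1. Slc4a4 was singled out after its values had been seen.

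Of the sodium pump family besides the members, 3 of 9 listed genes were held, and 2 were analysed. Atp1b3, the third beta subunit, gave 1622, 1559, 1723 and 1434 units in samples 1 to 4, a range of 1.20-fold, with sample 4 lowest as for Atp1b1. Atp4a, the catalytic subunit of the gastric proton pump, was lowest in sample 3 at 131 units and lay between 189 and 192 units elsewhere.

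Regulators of the pumps included the FXYD proteins, small membrane proteins that bind the sodium pump. Fxyd7, the brain form, gave 240, 374, 322 and 110 units, a range of 3.39-fold with sample 4 far below the others (unadjusted p of 0.0197, adjusted p of 0.716 in the limma test). Fxyd1, also called phospholemman, ranged from 625 to 773 units and was highest in sample 4. Fxyd5 ranged from 85.7 units in sample 4 to 138 units in sample 2. In all, 7 of 12 listed regulators were held and 4 were analysed, with 1 range of at least 2-fold. The low value of Fxyd7 stood in sample 4, in which Atp1b1, Atp2a2 and Atp2b2 were also lowest. That sample was lowest for 19 of the 39 analysed related genes and for 30.7% of all analysed probe sets.

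Transporters that spend the sodium gradient were represented by 4 of 8 listed genes, all analysed. Slc1a2, the main glutamate transporter of astrocytes, gave 190, 219, 373 and 107 units, highest in sample 3 and lowest in sample 4 as Atp2b2 was, with a range of 3.47-fold (unadjusted p of 0.0327, adjusted p of 0.807 in the limma test). Slc1a1, the neuronal glutamate transporter, was lowest in sample 4 at 272 units and between 357 and 377 units in the others. The bicarbonate cotransporter Slc4a4 was high in sample 3 at 214 units and lowest in sample 2 at 100.4 units. The sodium-calcium exchanger Slc8a1, 1 of 9 listed exchangers that the annotation held, was highest in sample 3 at 518 units, against 314 to 390 units in the others.

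No analysed gene from the other lists of calcium handling had a range as wide as that of Atp2b2. Of the other calcium pumps, 3 of 6 listed genes were held and 2 were analysed: Atp2a3, or SERCA3, ranged from 133 to 178 units, and Atp2c1, the calcium and manganese pump of the Golgi, from 508 to 679 units, both highest in sample 4. Among 9 of 13 listed genes of the calcium store that were held, 7 were analysed. The ryanodine receptor gene Ryr3, a calcium release channel, was highest in sample 1 at 601 units and lay between 295 and 354 units elsewhere, although its other analysed probe set was lowest in sample 4 and nearly equal in the rest. Ryr1 was also highest in sample 1, at 185 units. The release channel gene Itpr2 gave 253, 190.4, 292 and 149.8 units, with its samples in the order of Atp2b2. Among the pump genes and the related lists, that order was also found for Atp2a2, Atp1b3 and Atp6v1a, the last through its probe set of highest mean. It was found for 2 of the 9 analysed neuron markers, Snap25 and Nefm, and for 5.49% of all analysed probe sets. Of 7 listed calcium buffers, 6 were held and analysed and 0 had a range of at least 2-fold. Calb1 (calbindin) lay between 522 and 665 units and Calb2 (calretinin) between 345 and 568 units.

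The vacuolar proton pump, which acidifies synaptic vesicles and lysosomes, served as a further ATP-driven pump. Of 16 listed genes 13 were held and analysed, and 1 had a range of at least 2-fold. That gene was Atp6v0a1, a subunit of the membrane domain, with 1617, 1261, 747 and 735 units in samples 1 to 4 (unadjusted p of 0.0190, adjusted p of 0.710 in the limma test). Samples 1 and 2 were high and samples 3 and 4 low, as for Atp1b2. The catalytic domain subunits Atp6v1a and Atp6v1b2 spanned 1.32-fold and 1.20-fold and were highest in sample 3, although other analysed Atp6v1a probe sets were highest in samples 4 and 3, and that of Atp6v1b2 was highest in sample 1.

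**Figure D4:**
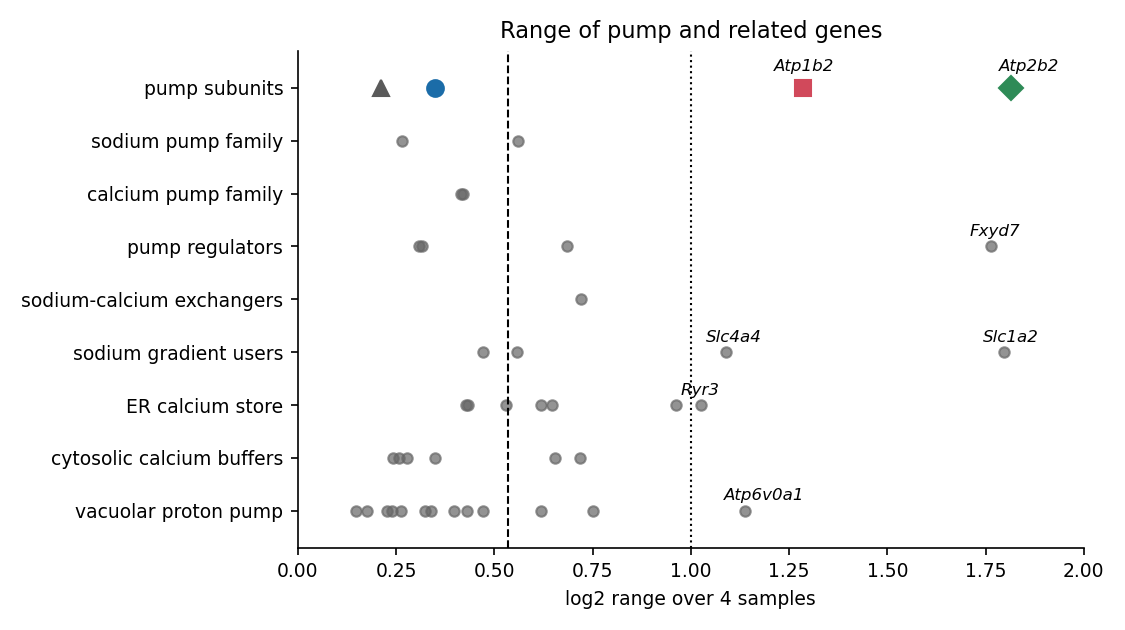
Range over the 4 samples (x axis, log2) of the analysed pump genes (top row, markers as in the plot of deviations) and of analysed genes from 8 related lists (grey points). The dashed line is the median of all analysed probe sets, 0.53, and the dotted line a 2-fold range. Atp1b2, Atp2b2 and 5 related genes lie to the right of the dotted line.

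The genes with the most similar course over the 4 samples were sought among 4823 other analysed genes, each through its probe set with the highest mean, by the smallest value of the largest log2 difference between centred signals. For Atp1b2 the nearest was Atp6v0a1, whose largest difference from it in any sample was 0.13 log2 units, followed by the splicing protein gene Snrpd3, at 0.20. For Atp2b2 the nearest were the kinase gene Hipk2, with a largest difference of 0.20, and Ramp3, a partner of calcitonin family receptors, with 0.22. Hipk2 gave 126, 108, 208 and 76.9 units and Ramp3 gave 125, 84.2, 168 and 44.65 units in samples 1 to 4. No gene came within 0.10 log2 units of Atp1b2 or of Atp2b2, whereas 159 did so for Atp1b1 and 181 for Atp2a2, since nearly level courses are common.

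The nearest genes of the steady pair were thus chosen among many of like course. For Atp1b1 they were Bcan, a proteoglycan of the brain matrix, and Mrpl34, a mitochondrial ribosomal protein gene, both with a largest difference of 0.02 log2 units. Those of Atp2a2 were the serotonin receptor gene Htr5a and the actin crosslinker gene Actn1, both with 0.03. Other analysed Actn1 probe sets did not follow that course. With 4 samples, such likeness describes these arrays only.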

How the data were processed

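The values deposited by the authors are linear intensities, 1 array per sample, and how the authors computed them is not given in the sources used here. The mean of each deposited array without its lowest and highest 2% of probe sets was 250.1 units, which points to scaling of the arrays to 1 level before deposit. No detection calls were used here. Controls were left out, and arrays were quantile normalized (limma 3.58.1, R 4.3.3), floored at the 25th percentile and taken to log2. The upper part of the probe sets by mean signal, above the median, was analysed (6210 of 12422). Variance was compared with a robust empirical Bayes trend on 3 residual and 5.06 prior degrees of freedom by an F test (one-sided), adjusted by Benjamini-Hochberg, at 0.05. A single symbol was given for 10833 probe sets, several for 396 and none for 1193, and for 10817 probe sets the symbol was taken from the GRCm38.p6 RefSeq table. A gene of a list was read through its probe set of highest mean. All member probe sets, the first 2 analysed genes of each related list, the gene of each list with the widest range and the 2 genes nearest to each member were named. Members and lists were chosen with earlier results of these data known. Alternatives covered normalization, floor, filter, the variance test, the fold counted and each sample left out. The plots were drawn with matplotlib 3.10.9.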

Additional observations from a re-analysis of the deposited data

Results flagged for a closer look

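The signal of Atp1b1 probe set 161467_f_at in sample 4 lay apart from the other samples: the gap to its nearest neighbour was 0.891 of the whole range, above Dixon's 95% critical value for 4 samples. The whole range was 1.27-fold. Chance flags about 1 in 20 groups of samples, and 6.01% of all analysed probe sets exceeded the value here. The other 3 analysed pump probe sets did not, with 0.560 for Atp2b2 as the next highest. The 2 pump probe sets with most or all samples below the floor were not assessed in this way.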

How the results depend on the processing

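The count of pump probe sets past the adjusted variance test was 0 and the count with a range of at least 2-fold was 2 under every alternative run for them. Over all probe sets, the count past the adjusted test was also 0 under each alternative. With the signal filter, 311 to 364 of 6210 or 6211 probe sets had an unadjusted p under 0.05. With no filter, 423 of 12422 did. The count with a range of at least 2-fold, 944, was 2810 with no signal filter, 2744 with a 1.5-fold limit, and 457 to 735 with each sample left out, 457 without sample 4. Adjusted p in the limma test ranged from 0.203 to 0.968 for Atp1b2 and from 0.203 to 0.994 for Atp2b2. The 0.203 came from the setting with no signal filter. There the steady pair had like values, 0.203 for Atp1b1 probe set 161467_f_at and 0.211 for Atp2a2. Their unadjusted p rose above 0.05 without sample 1 for Atp1b2 (0.0715), with a common prior variance for Atp1b2 (0.0601) and without sample 3 for Atp2b2 (0.157). Of 96 recomputed signals and ranges, 16 moved by more than 1 SD, 15 of them in the 2 probe sets at or near the floor, whose values follow from where the floor is set; the other was the range of Atp1b1 without sample 4. No paired analysis was possible because there is only 1 group of samples.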
